A study of Marchantia polymorpha with 18 samples.

Results

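MpDIR65 (Mp5g16440), MpDIR41 (Mp5g16480), MpDIR39 (Mp5g16510) and MpDIR2 (Mp3g07430) are 4 of the 59 genes of the liverwort Marchantia polymorpha that carry a dirigent name, in a table of 19355 genes. They were chosen by name for their large increase in crushed thallus, so that increase is described below and not tested. The groups were Mpglr-9 damaged, WT damaged, Mpglr-9 systemic, WT systemic, Mpglr-9 intact and WT intact. Damaged tissue was the 2 thallus lobes crushed with serrated forceps, systemic tissue the untouched lobes next to them, both taken 4 h after wounding, and intact tissue came from unwounded plants at the same time. All plants had grown on soil for 28 days, and each of the 18 libraries (3 per group) was made from tissue of 9 plants. Systemic and damaged lobes came from wounded plants, and the labels do not say whether a damaged and a systemic library of equal number share plants. Mpglr-9 is a single CRISPR deletion line of MpGLR, so an effect of that deletion and any other difference of the line cannot be told apart. MpGLR encodes a glutamate receptor-like channel. The study asked what it contributes to the expression changes after wounding.

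Dirigent proteins are secreted plant proteins that steer the coupling of phenoxy radicals so that a single stereoisomer of the product forms. The radicals come from oxidases such as peroxidases and laccases. The founding member, from Forsythia, guides the coupling of coniferyl alcohol to the lignan pinoresinol, and in Arabidopsis another member is needed for the ordered lignin of the root Casparian strip. Genes of the family are often induced by wounding or pathogens in vascular plants. The substrates of the 4 Marchantia proteins are not given by the names used here.

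Libraries held 17312755 to 30690205 counts, and 3 counts, used as the limit for a gene without reads, correspond to 0.0974 to 0.178 CPM (read counts scaled by TMM to a common library size). These limits cover counting error only. In a principal component analysis the 6 damaged libraries stood apart from the 12 others on component 1 (68.7% of the variance). On component 2 (9.73%) library 3 was highest in each group, most of all in WT intact and Mpglr-9 intact tissue. MpGLR itself was not analysed here, so the genotype labels were not checked by expression. All 4 dirigent genes passed the filter on low counts, but MpDIR65 and MpDIR41 passed it only through the damaged libraries.

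All 4 genes were far higher in crushed lobes than in any undamaged tissue, in both genotypes. The untouched lobes of wounded plants held no read of MpDIR65 or MpDIR41. The 3 WT systemic and the 3 Mpglr-9 intact libraries all had less MpDIR39 than the 3 WT intact libraries, as in 5.05% and 5.06% of all tested genes, and neither difference passed edgeR's test. In crushed lobes the genotypes overlapped for every gene. In these bulk samples, fewer cells of a type and less RNA per cell cannot be told apart.

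MpDIR65 had 45.4, 22.9 and 26.4 CPM in Mpglr-9 damaged lobes and 37.8, 27.3 and 22.6 CPM in WT damaged lobes. It had no count in any of the 6 systemic libraries, 0, 2 and 2 counts in Mpglr-9 intact and 0, 11 and 15 counts in WT intact thallus. Every damaged library thus stood above the 12 others, and in intact thallus the gene was close to the counting limit. The damaged mean was 31.6 ± 12.1 CPM in Mpglr-9 and 29.2 ± 7.78 CPM in WT (SD, n = 3 each). Relative to intact thallus this was a log2 fold change of 9.19 ± 0.74 (SE) in Mpglr-9. There the counts summed over libraries, only 4 of them in intact thallus, give a ratio with a 95% counting interval of 252-fold to 2372-fold. That interval leaves out variation between libraries. In WT the log2 fold change was 6.50 ± 0.58, or 90.8-fold, with 5.91 when WT intact library 1 was left out and 7.46 by limma-voom. Relative to systemic lobes the damaged mean was at least 233-fold higher in Mpglr-9 and at least 182-fold higher in WT, taking 3 counts per library as the limit.

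MpDIR41 had 33.4, 15.7 and 12.2 CPM in Mpglr-9 damaged lobes and 26.8, 20.9 and 10.7 CPM in WT damaged lobes. Outside crushed tissue the table holds 13 reads of it, all in WT intact thallus, with 12 of them in library 2 and 1 in library 3. MpDIR41 thus stood above the counting limit in a single undamaged library. The mean of the crushed lobes of Mpglr-9 stood at least 181-fold above Mpglr-9 intact thallus and at least 151-fold above systemic lobes. In WT, damaged over intact was 6.86 ± 0.96 on the log2 scale (SE), or 116-fold, and this value rested on WT intact library 2: without it the change was 9.78. It was 6.26 without WT intact library 1. Over WT systemic lobes the mean of the WT crushed lobes was at least 121-fold higher.

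MpDIR39 supplied 73.9% ± 3.35 of the reads of the 4 genes in Mpglr-9 damaged and 67.3% ± 4.59 in WT damaged lobes (SD, n = 3 each). It had 595, 371 and 366 CPM in Mpglr-9 damaged lobes and 474, 406 and 320.2 CPM in WT damaged lobes. In systemic lobes it had 0.721, 0.200 and 0.219 CPM in Mpglr-9 and 0.453, 0.107 and 0.759 CPM in WT. In intact thallus it had 0.178, 1.28 and 0.770 CPM in Mpglr-9, against 1.58, 3.94 and 7.24 CPM in WT. Crushed lobes stood far above all others, the 3 WT intact libraries came next with no overlap, and the 9 remaining libraries overlapped with each other. Damaged over intact was 9.23 ± 0.52 on the log2 scale (SE), or 601-fold, in Mpglr-9 and 6.53 ± 0.42, or 92.5-fold, in WT. These values were 9.87 without Mpglr-9 intact library 2 and 7.23 without WT intact library 3. Damaged over systemic was 1178-fold in Mpglr-9 and 864-fold in WT. Without Mpglr-9 systemic library 1, which held 16 of the 26 reads of its group, the Mpglr-9 value was 11.02 on the log2 scale.

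MpDIR2, on chromosome 3, differed from the other 3 genes, which lie on chromosome 5, in having a clear level in every library. It had 146, 110.5 and 66.5 CPM in Mpglr-9 damaged lobes and 208, 161 and 89.0 CPM in WT damaged lobes. In systemic lobes it had 3.61, 2.12 and 1.58 CPM in Mpglr-9 and 2.33, 1.76 and 2.19 CPM in WT. In intact thallus it had 2.31, 3.28 and 2.53 CPM in Mpglr-9, against 3.71, 3.72 and 4.38 CPM in WT. The damaged libraries again stood above the 12 others, and the undamaged groups lay within a narrow range in which only WT intact stood above the libraries of the other groups. Damaged over intact was 5.31 ± 0.40 on the log2 scale (SE), or 39.7-fold, in Mpglr-9 and 5.27 ± 0.38, or 38.5-fold, in WT. Damaged over systemic was 44.4-fold in Mpglr-9 and 71.6-fold in WT.

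Over all 13450 tested genes, 54.8% were called in damaged against intact Mpglr-9 thallus and 55.5% in WT, at an adjusted p under 0.05 in edgeR's quasi-likelihood test. In 21.4% of the tested genes all 6 damaged libraries stood above the 12 others, as they did for the 4 genes. Since the genes were chosen for this change, nothing is read from those shares.

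**Figure D1:**
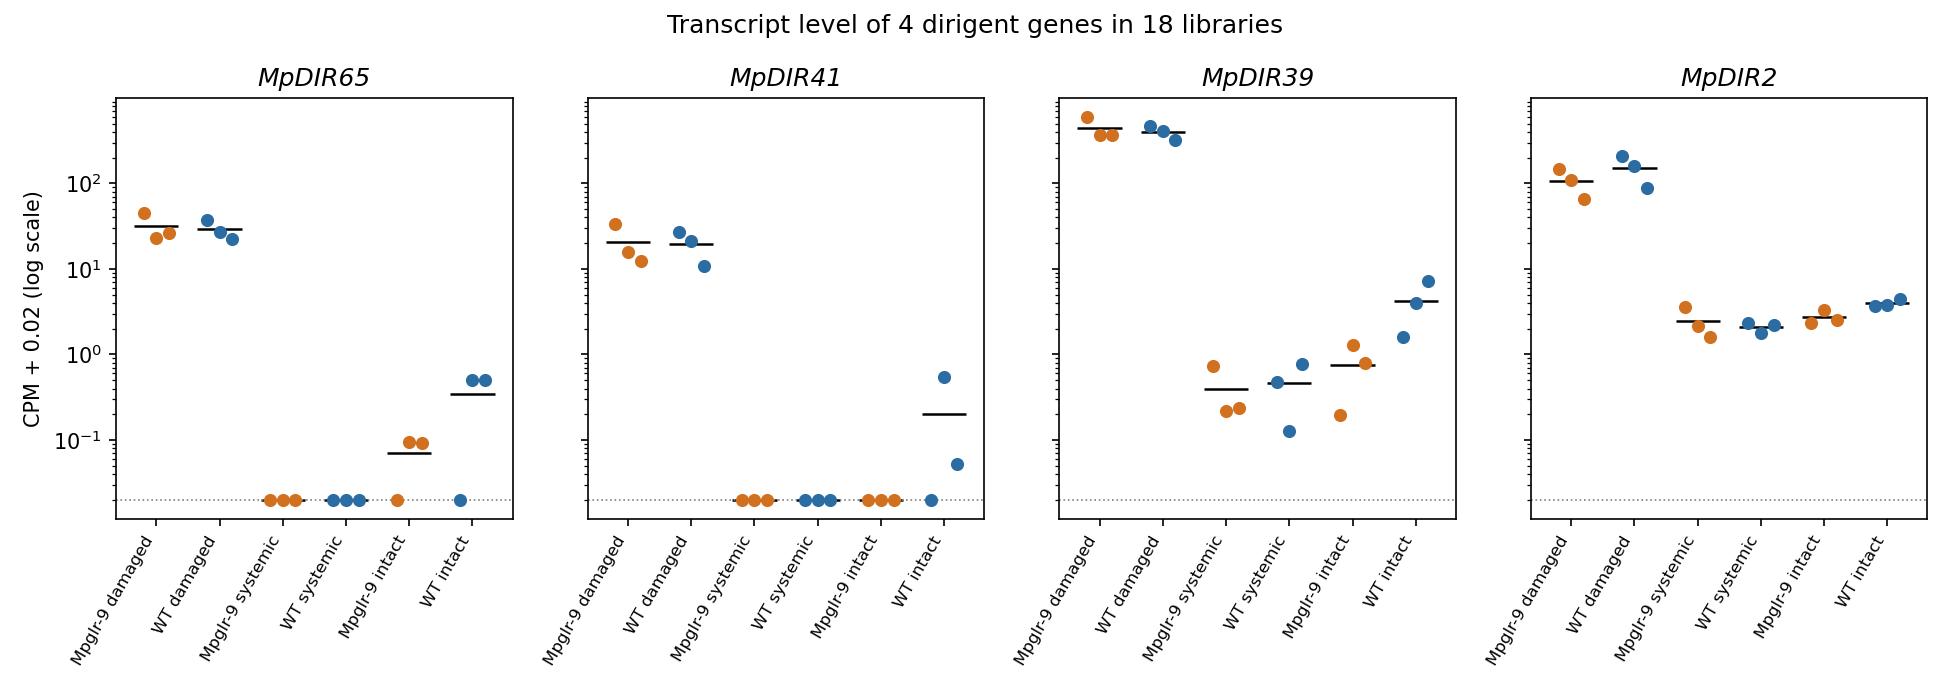
Transcript level of the 4 genes in each library (points, replicates 1 to 3 from left to right) and group means (bars), as CPM + 0.02 on a log axis; the dotted line marks a count of 0. The damaged libraries stand above all others in each panel, MpDIR65 and MpDIR41 sit on the zero line in all 6 systemic libraries, and MpDIR39 reaches 1.58 to 7.24 CPM in WT intact thallus.

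Systemic lobes were set against intact thallus to ask whether the genes respond at a distance. No gene of the table was called in this comparison with edgeR, in Mpglr-9, in WT or over both genotypes pooled, so 0 of the 4 dirigent genes and 0% of all genes were called. At an unadjusted p under 0.05 there were 810 genes (6.02%) in Mpglr-9, 353 (2.62%) in WT and 773 (5.75%) pooled. By DESeq2, 0 genes were called in Mpglr-9, 8 (0.0595%) in WT and 23 (0.171%) pooled, and by limma-voom 0 in all 3. None of the 4 genes had a higher mean in systemic than in intact tissue of the same genotype.

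MpDIR39 averaged 0.380 ± 0.295 CPM in Mpglr-9 systemic lobes and 0.743 ± 0.552 CPM in Mpglr-9 intact thallus (SD, n = 3 each), a log2 difference of -0.97 ± 1.21 (SE). In WT it averaged 0.440 ± 0.326 CPM in systemic lobes and 4.25 ± 2.84 CPM in intact thallus (SD, n = 3 each), a log2 difference of -3.22 ± 0.80 (SE). The WT systemic and intact libraries did not overlap, as in 5.05% of the tested genes in that direction. The edgeR adjusted p was 1 in WT and 0.731 pooled (log2 difference -2.10 ± 0.74), whereas DESeq2 gave 0.0172 in WT and 0.0306 pooled. Over all alternatives the adjusted p ran from 0.0172 to 1 in WT. Without WT intact library 3, which had the most reads of MpDIR39 among the undamaged libraries, the WT difference was -2.53.

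The other 3 genes were not called by any tool in systemic lobes. For MpDIR65 and MpDIR41 the test cannot decide whether they changed, since they passed the filter only through the damaged libraries and had few or no reads in the tissues compared. MpDIR2 averaged 2.43 ± 1.05 CPM in Mpglr-9 systemic lobes and 2.71 ± 0.506 CPM in Mpglr-9 intact thallus, and 2.10 ± 0.296 CPM in WT systemic lobes against 3.94 ± 0.384 CPM in WT intact thallus (SD, n = 3 each). Its log2 differences were -0.16 ± 0.54 in Mpglr-9 and -0.89 ± 0.52 in WT (SE, edgeR adjusted p = 0.991 and 1). The WT systemic libraries of MpDIR2 lay below the WT intact ones without overlap, as in 5.05% of the tested genes. MpDIR65 had 0 reads in WT systemic lobes against 26 in WT intact thallus (edgeR unadjusted p = 0.0199, adjusted p = 1). MpDIR41 had 0 against 13 reads (edgeR adjusted p = 1). WT intact library 1 held no read of either gene, so no lowest fold is given. In Mpglr-9 both genes were at or under the counting limit in systemic and in intact tissue, so no fold is given there either.

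Mpglr-9 was then compared with WT within each tissue. The edgeR test called 3 genes of the table in intact thallus (0.0223%), 4 in damaged lobes (0.0297%), 7 in systemic lobes (0.052%) and 42 (0.312%) for the mean of the 3 tissues. None of the 4 dirigent genes was among them. MpDIR65 and MpDIR41 had no read in systemic lobes of either genotype, so the test there could not call them. The mean of the 3 tissues includes those lobes, so it cannot decide on these genes either. With the replicate number as a block within each tissue the counts were 17 in intact thallus (0.126%), 49 in damaged lobes (0.364%) and 259 (1.93%) for the mean of the tissues.

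In intact thallus MpDIR39 was lower in Mpglr-9 in every library, with 5, 34 and 21 reads against 45, 91 and 223 reads in WT. The log2 difference was -2.55 ± 0.69 (SE, edgeR unadjusted p = 0.00288, adjusted p = 1), and it was -1.86 without WT intact library 3, -2.07 without Mpglr-9 intact library 1 and -3.18 without Mpglr-9 intact library 2. Of all tested genes 5.06% showed the same separation of the Mpglr-9 below the WT libraries, MpDIR2 among them with a log2 difference of -0.55 ± 0.48 (SE, edgeR adjusted p = 1). MpDIR65 had 4 reads in Mpglr-9 against 26 in WT intact thallus, a log2 difference of -2.57 ± 1.26 (SE, edgeR adjusted p = 1). MpDIR41 had 0 reads in Mpglr-9 against 13 in WT (edgeR adjusted p = 1). None of these differences passed the test. MpDIR65 and MpDIR41 had too few reads in intact thallus to be read for a direction: in WT intact library 1 neither MpDIR65 nor MpDIR41 had a read, so the WT side rested on libraries 2 and 3 and, for MpDIR41, almost wholly on library 2.

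In crushed lobes the 3 genes of chromosome 5 had nearly the same level in both genotypes. The log2 difference of Mpglr-9 from WT was 0.15 for MpDIR39 (95% interval -0.44 to 0.75), 0.11 for MpDIR65 (-0.65 to 0.88) and 0.074 for MpDIR41 (-1.15 to 1.30). Within the pairs of equal replicate number the Mpglr-9 level of MpDIR39 was 1.26, 0.914 and 1.14 times the WT level, so the direction varied.

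MpDIR2 averaged 108 ± 39.6 CPM in Mpglr-9 damaged and 153 ± 60.1 CPM in WT damaged lobes (SD, n = 3 each), a log2 difference of -0.50 ± 0.29 (SE, 95% interval -1.07 to 0.067, edgeR adjusted p = 0.871). Within pairs of equal number the Mpglr-9 level was 0.699, 0.687 and 0.747 times the WT level, lower in 3 of 3 pairs. In an edgeR fit with the replicate number as a block within each tissue, added after the values were seen, the difference was -0.50 with an adjusted p of 0.00773, and 49 genes (0.364%) were called. That call held without pair 3 (adjusted p = 0.018) and was lost without pair 1 (0.0958) or pair 2 (0.162), while the log2 difference stayed at -0.53, -0.48 and -0.47 without pairs 3, 1 and 2. With the block applied across all tissues, MpDIR2 was not called. MpDIR1, its neighbour, stood at 0.710, 0.747 and 0.785 times the WT level in the same pairs. It was called neither by edgeR without the block (adjusted p = 0.915) nor by the fit with the block within each tissue. How many of all tested genes were lower in every such pair was not counted.

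**Figure D2:**
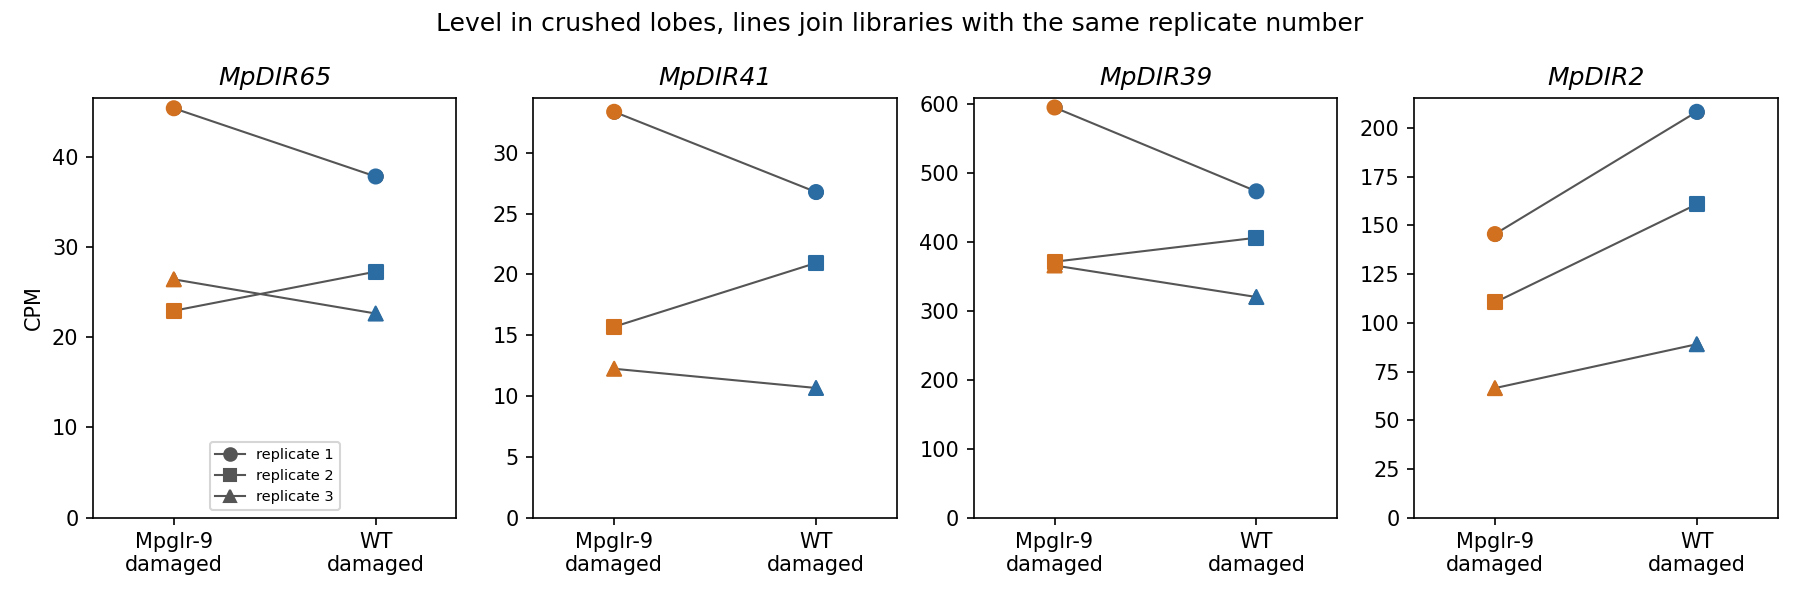
CPM of the 4 genes in the damaged libraries of Mpglr-9 (left) and WT (right), with lines joining libraries of equal replicate number and the axis starting at 0. The 3 lines of MpDIR2 all run higher on the WT side, while those of MpDIR65, MpDIR41 and MpDIR39 run in different directions.

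In systemic lobes MpDIR39 differed by -0.30 ± 1.39 and MpDIR2 by 0.19 ± 0.58 on the log2 scale (SE), with edgeR adjusted p of 1 for each. MpDIR65 and MpDIR41 had no read in either genotype. Over the mean of the 3 tissues the differences were -0.90 ± 0.55 for MpDIR39 (edgeR adjusted p = 0.716) and -0.29 ± 0.27 for MpDIR2 (0.836).

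The change from intact to damaged tissue was also compared between the genotypes. No gene of the table was called (0%) with edgeR, DESeq2 or limma-voom, while 335 genes (2.49%) had an unadjusted edgeR p under 0.05. The change of MpDIR39 was larger in Mpglr-9 by 2.70 ± 0.76 on the log2 scale (SE, 95% interval 1.21 to 4.19, unadjusted p = 0.00376, adjusted p = 1). It was 2.01 without WT intact library 3 and 3.34 without Mpglr-9 intact library 2. For MpDIR65 the difference was 2.69 ± 1.32 (unadjusted p = 0.0705) and 1.68 by limma-voom, for MpDIR2 it was 0.046 ± 0.56, and for MpDIR41, with no read in Mpglr-9 intact thallus, the unadjusted p was 0.142. These differences use the libraries by which the genes were chosen, and the intact libraries behind them held few reads. The change from intact to systemic tissue differed by 2.25 ± 1.66 for MpDIR39 and 0.74 ± 0.76 for MpDIR2 (SE, edgeR adjusted p = 1 for each), with 0 genes called by edgeR, DESeq2 and limma-voom and 356 (2.65%) at an unadjusted edgeR p under 0.05.

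MpDIR65, MpDIR41 and MpDIR39 belong to a run of neighbouring dirigent genes on chromosome 5, which other genes interrupt. From the lowest number it runs MpDIR65, MpDIR61, MpDIR42, MpDIR41, MpPPO28, MpDIR39 and MpDIR38, with the unnamed Mp5g16450, which had no reads, after MpDIR65. Reads shared between near-identical copies could not be separated, and the sequences of these genes were not used here, so how alike the copies are was not assessed. MpDIR61 averaged 74.7 ± 35.7 CPM in Mpglr-9 damaged and 60.6 ± 22.2 CPM in WT damaged lobes, against 0.0618 ± 0.0444 CPM in Mpglr-9 intact and 0.555 ± 0.410 CPM in WT intact thallus (SD, n = 3 each). MpDIR42 averaged 11.1 ± 5.70 CPM in Mpglr-9 damaged and 9.40 ± 2.40 CPM in WT damaged lobes (SD, n = 3 each), had 9 reads in WT intact thallus and none in the other undamaged groups. Both rose in both genotypes, MpDIR61 1127-fold in Mpglr-9 and 107-fold in WT (edgeR adjusted p = 3.88e-08 and 1.19e-07). The damaged mean of MpDIR42 was at least 97.8-fold higher in Mpglr-9, and MpDIR42 rose 82.5-fold in WT (edgeR adjusted p = 6.16e-07 and 1.84e-06). Both genes had few or no reads in undamaged libraries, so these p-values are given as a description. In intact thallus MpDIR61 had 1, 3 and 1 reads in Mpglr-9 against 3, 15 and 28 reads in WT and MpDIR42 had 0 against 9, and neither difference was called in the edgeR fit of 6 group means (adjusted p = 1). With the replicate number as a block within each tissue, a fit added after the values were seen, MpDIR61 was called there (log2 difference -3.07, edgeR adjusted p = 0.0417). That fit called 17 of all tested genes in intact thallus (0.126%). With so few reads of MpDIR61 in intact thallus, the call is given as a description only.

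MpDIR38, next after MpDIR39, was not tested. It had 2, 1 and 0 reads in Mpglr-9 damaged and 3, 2 and 0 reads in WT damaged lobes, none in the 12 other libraries, and the unnamed Mp5g16530 had none. Mp5g16540, the following gene, rose by only 0.41 in Mpglr-9 and 0.38 in WT on the log2 scale (edgeR adjusted p = 0.00928 and 0.0137). On the other side Mp5g16430 fell by 1.65 in Mpglr-9 and 1.22 in WT (edgeR adjusted p = 8.65e-05 and 0.00112). The polyphenol oxidase gene MpPPO28, whose product belongs to the copper enzymes that oxidise phenols, lies between MpDIR41 and MpDIR39. It averaged 4.87 CPM in Mpglr-9 damaged and 3.14 CPM in WT damaged lobes and rose by 5.75 in Mpglr-9 and 4.76 in WT on the log2 scale (edgeR adjusted p = 1.66e-06 and 9.66e-06). MpPPO28 and the flanking genes were picked after their values were seen, so their p-values are descriptions.

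**Figure D3:**
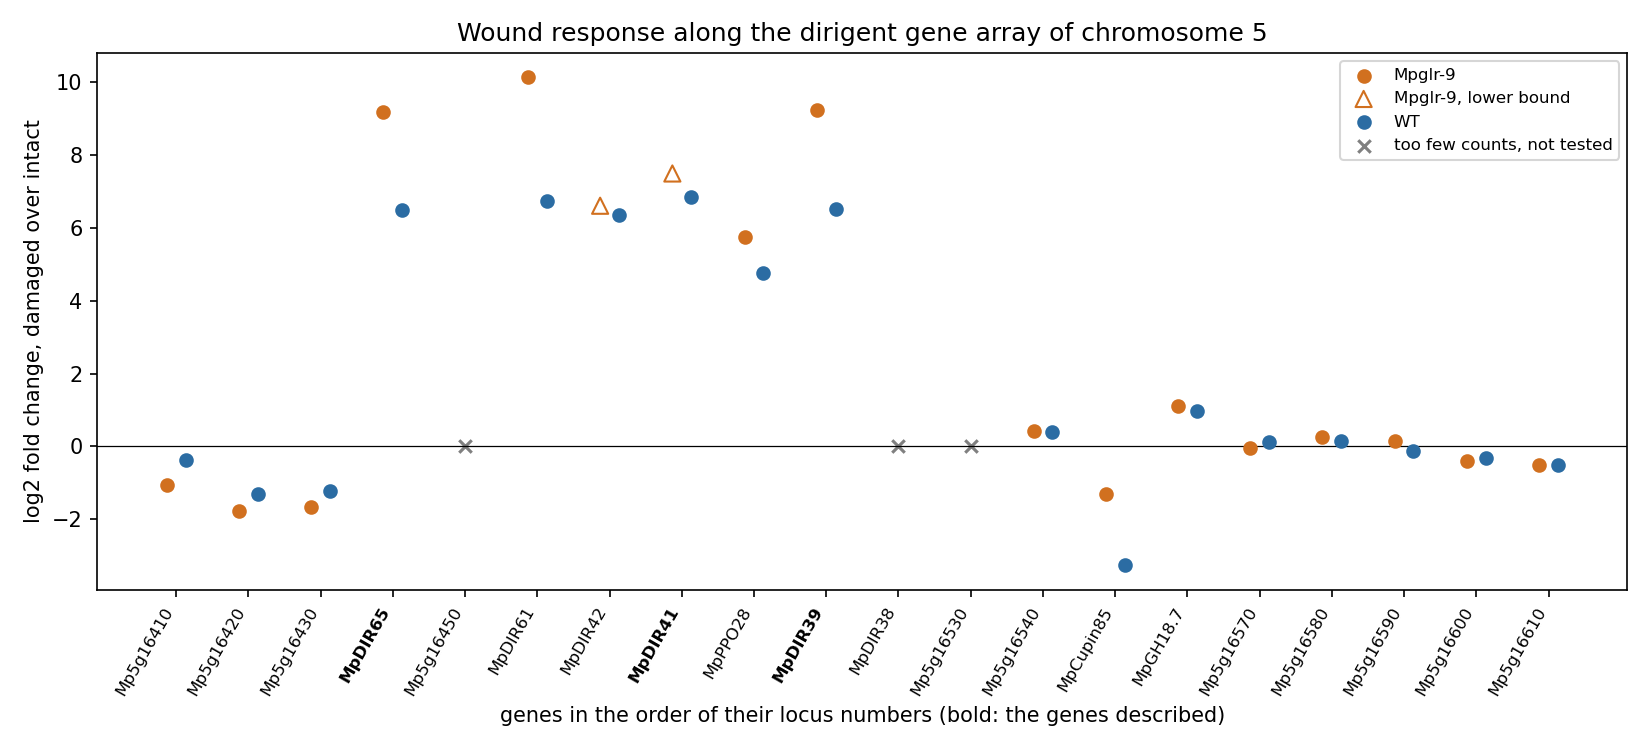
Log2 fold change of damaged over intact thallus, in Mpglr-9 and WT, for the genes around the chromosome 5 array in the order of their locus numbers; open triangles are lower bounds where Mpglr-9 intact thallus had no read, and crosses are genes with too few counts to test. The dirigent genes from MpDIR65 to MpDIR39 lie above 6, MpPPO28 at 5.75 and 4.76, and the flanking genes near or below 1.

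Within crushed lobes the array genes kept similar proportions in both genotypes. Per 100 reads of MpDIR39 there were 7.0 ± 0.747 of MpDIR65 in Mpglr-9 and 7.25 ± 0.657 in WT, 4.39 ± 1.14 of MpDIR41 in Mpglr-9 and 4.71 ± 1.22 in WT, and 16.3 ± 3.20 of MpDIR61 in Mpglr-9 and 14.8 ± 2.70 in WT (SD, n = 3 each). Such read numbers are not corrected for transcript length and do not rank the genes by level. Correlations across the 6 damaged libraries were taken on log2 CPM after the mean of each genotype was subtracted, so differences between the genotypes do not enter them. MpDIR39 correlated with MpDIR65 at r = 0.970 and with MpDIR41 at r = 0.975, and MpDIR65 with MpDIR41 at r = 0.903. With MpDIR2 the r was 0.945 for MpDIR41, 0.858 for MpDIR39 and 0.746 for MpDIR65, so the r with MpDIR2 and those among the other 3 genes overlapped. These r are descriptions over 6 libraries of the 2 genotypes that share a scaling.

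MpDIR2 has its own neighbour, MpDIR1, at the preceding locus number. MpDIR1 averaged 55.1 ± 20.0 CPM in Mpglr-9 damaged lobes and 0.603 ± 0.296 CPM in Mpglr-9 intact thallus, and 74.8 ± 30.6 CPM in WT damaged lobes against 1.19 ± 0.385 CPM in WT intact thallus (SD, n = 3 each). It rose 91.2-fold in Mpglr-9 and 61.0-fold in WT (edgeR adjusted p = 7.29e-08 and 6.77e-08). Its reads came to between 46.3% and 52.4% of those of MpDIR2 in the 6 damaged libraries. The same share was 17.0% to 25.0% in Mpglr-9 systemic and 22.4% to 51.5% in WT systemic lobes, and 16.9% to 28.7% in Mpglr-9 intact and 22.1% to 36.3% in WT intact thallus, so WT systemic library 2 lay within the damaged range. On the other side of MpDIR2 follow MpPIWIb and MpPIWIa, named for the Argonaute-type PIWI proteins that bind small RNAs in animals. MpPIWIb averaged 6.01 CPM in Mpglr-9 damaged and 6.10 CPM in WT damaged lobes, against 0.171 CPM in Mpglr-9 intact and 0.176 CPM in WT intact thallus, and rose by 5.09 in Mpglr-9 and 5.04 in WT on the log2 scale (edgeR adjusted p = 1.01e-08 and 1.04e-08). MpPIWIa rose by 2.36 in Mpglr-9 and 3.19 in WT (edgeR adjusted p = 0.000282 and 1.75e-05). Both PIWI genes were picked after their values were seen, so their p-values are descriptions.

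Of the 59 dirigent genes 47 had enough reads to be tested. Ordered by the WT change from intact to damaged tissue, MpDIR41 was in place 1, MpDIR39 in place 3, MpDIR65 in place 5 and MpDIR2 in place 8, with MpDIR61, MpDIR57, MpDIR42 and MpDIR1 between them and MpDIR51 next below (31.8-fold). The 4 genes were thus not set apart from the rest of the family by a gap. Of the other 43 tested dirigent genes, 27 rose and 2 fell in Mpglr-9 (median log2 fold change 0.78) and 28 rose and 3 fell in WT (median 0.94). Over all tested genes 27.6% rose and 27.2% fell in Mpglr-9, and 27.7% rose and 27.8% fell in WT, with medians of -0.020 and -0.026. MpDIR57, at a separate place on chromosome 5, had a mean of 6.18 ± 2.97 CPM in Mpglr-9 damaged and 3.86 ± 1.97 CPM in WT damaged lobes (SD, n = 3 each). It had only 1 read in Mpglr-9 intact and 3 reads in WT intact thallus. MpDIR57 was picked after its values were seen, so its rise is described and not tested. At the other end, MpDIR24 fell by 1.04 in Mpglr-9 and 1.37 in WT on the log2 scale (edgeR adjusted p = 0.00113 and 9.9e-05). In systemic lobes, between the genotypes and in the interactions, edgeR with the 6 group means and limma-voom called none of the other 43 dirigent genes. DESeq2 called MpDIR5 in WT systemic lobes (log2 difference -0.73, adjusted p = 0.0293). The edgeR fit with the block within each tissue called MpDIR61 in intact thallus, where it had few reads. It also called MpDIR31 and MpDIR34, both lower in Mpglr-9, for the mean of the 3 tissues. Of all tested genes that fit called 0.126% in intact thallus and 1.93% for the mean of the tissues.

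**Figure D4:**
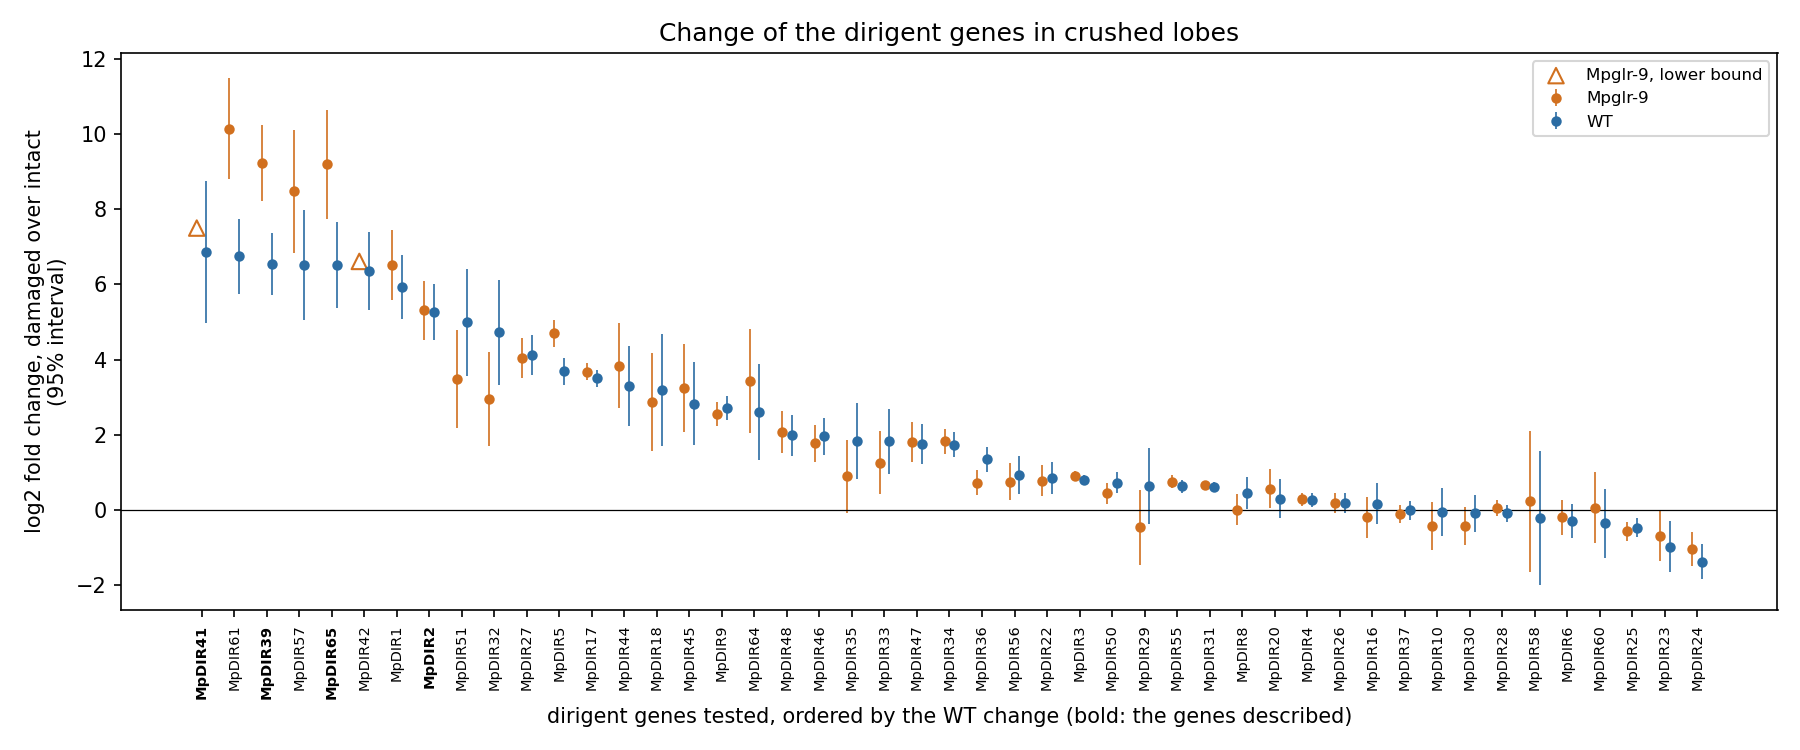
Log2 fold change of damaged over intact thallus with its 95% interval for the 47 tested dirigent genes in Mpglr-9 and WT, ordered by the WT value, with the 4 genes described in bold; triangles are lower bounds where Mpglr-9 intact thallus had no read. The genes form a continuous slope from above 6 to -1.37 in WT.

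Dirigent transcripts together made up 0.670% ± 0.0853 of all reads in Mpglr-9 damaged lobes and 0.669% ± 0.0694 in WT damaged lobes, against 0.0993% ± 0.00226 in Mpglr-9 intact and 0.108% ± 0.00645 in WT intact thallus (SD, n = 3 each). The 4 genes supplied 8.70% ± 1.47 of these dirigent reads in Mpglr-9 damaged and 8.80% ± 1.32 in WT damaged lobes. In systemic lobes they supplied 0.282% ± 0.103 in Mpglr-9 and 0.253% ± 0.0645 in WT, and in intact thallus 0.350% ± 0.0972 in Mpglr-9 and 0.809% ± 0.269 in WT (SD, n = 3 each). Most dirigent reads of crushed lobes came from MpDIR17. Without it the share of the 4 genes was 24.2% ± 3.69 in Mpglr-9 damaged and 23.6% ± 3.11 in WT damaged lobes (SD, n = 3 each).

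Enzymes that make the phenols and radicals on which dirigent proteins act were read from lists of gene names, to be set beside all tested genes, of which 27.6% rose and 27.2% fell in Mpglr-9 and 27.7% rose and 27.8% fell in WT. At the entry to phenylpropanoid synthesis (phenylalanine ammonia-lyase, cinnamate hydroxylase and 4-coumarate-CoA ligase), 11 of 15 tested genes rose and 1 fell in Mpglr-9 damaged lobes (median log2 fold change 0.88), and 12 rose and 1 fell in WT (1.10). Mp4CL2, a ligase gene that activates hydroxycinnamic acids, averaged 1354 ± 210.0 CPM in Mpglr-9 damaged lobes and 148 ± 8.28 CPM in Mpglr-9 intact thallus, and 1363 ± 209.8 CPM in WT damaged lobes against 146 ± 10.9 CPM in WT intact thallus (SD, n = 3 each). MpPAL4, a gene of the enzyme that opens the pathway, rose 4.49-fold in Mpglr-9 and 6.12-fold in WT. Among 14 tested genes of monolignol-type steps and O-methyltransferases, 2 rose and 4 fell in Mpglr-9 (median -0.18) and 3 rose and 4 fell in WT (-0.043). In that list MpOMT8 rose 6.54-fold in Mpglr-9 and 5.01-fold in WT, while MpOMT1 fell by 0.30 in Mpglr-9 and 0.45 in WT on the log2 scale.

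Over all tested genes, as above, 27.6% rose and 27.2% fell in Mpglr-9, and 27.7% rose and 27.8% fell in WT. Of 36 tested polyphenol oxidase genes 11 rose and 2 fell in Mpglr-9 (median -0.014) and 12 rose and 4 fell in WT (0.10). The summed level of all named polyphenol oxidase genes was 8195.5 to 9414 CPM in Mpglr-9 damaged lobes and 670 to 776 CPM in Mpglr-9 intact thallus. In WT that sum was 8403 to 10189 CPM in damaged lobes and 782 to 926 CPM in intact thallus. MpPPO31 averaged 124 ± 49.9 CPM in Mpglr-9 damaged lobes and 0.0733 ± 0.127 CPM in Mpglr-9 intact thallus, and 83.8 ± 16.9 CPM in WT damaged lobes against 0.609 ± 0.554 CPM in WT intact thallus (SD, n = 3 each), and MpPPO42 rose 26.6-fold in Mpglr-9 and 24.1-fold in WT. Of 102 tested class III peroxidase genes, whose products form phenoxy radicals with hydrogen peroxide, 11 rose and 47 fell in Mpglr-9 (median -0.79) and 9 rose and 41 fell in WT (-0.77). The summed level of all named class III peroxidase genes was nevertheless higher in damaged tissue. It was 2546 to 3082 CPM in Mpglr-9 damaged lobes and 1414 to 1445 CPM in Mpglr-9 intact thallus. In WT the sum was 2476 to 2981 CPM in damaged lobes and 1286 to 1443 CPM in intact thallus. MpPOD161 rose 7.78-fold in Mpglr-9 and 12.5-fold in WT, and MpPOD167 rose 11.9-fold in Mpglr-9 and 11.8-fold in WT. No laccase symbol was among the names used. In none of these lists did edgeR with the 6 group means call a gene in systemic lobes or in the interactions.

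Markers of other tissue states were read in the same contrast, in which 27.6% of all tested genes rose and 27.2% fell in Mpglr-9, and 27.7% rose and 27.8% fell in WT. All 5 genes of photosynthesis and chlorophyll synthesis fell in both genotypes, with a summed level of 690.4 to 964 CPM in Mpglr-9 damaged and 736 to 967 CPM in WT damaged lobes, 1509 to 1679 CPM in Mpglr-9 systemic and 1602 to 1679 CPM in WT systemic lobes, and 1540.3 to 1704 CPM in Mpglr-9 intact and 1549 to 1653 CPM in WT intact thallus. Of 28 tested genes of dividing cells 22 fell and 1 rose in Mpglr-9, and 24 fell and 1 rose in WT. Their summed level was 1693 to 1860.5 CPM in Mpglr-9 damaged and 1664 to 1931 CPM in WT damaged lobes, 2199.9 to 2238 CPM in Mpglr-9 systemic and 2347 to 2375 CPM in WT systemic lobes, and 2254 to 2304 CPM in Mpglr-9 intact and 2232 to 2411 CPM in WT intact thallus, and 2 of the 31 named markers had no read in each group. The part of these shifts in the dirigent values was not tested. Of 5 tested markers of reproductive cells 0 changed in Mpglr-9 and 1 fell in WT, and 40 tested genes of the male V chromosome had 4 that rose and 8 that fell in Mpglr-9 and 1 that rose and 8 that fell in WT.

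The genes whose log2 CPM over the 18 libraries was most like the mean standardised profile of the 4 genes were MpDIR61 (Pearson r = 0.997), MpDIR42 (0.994), Mp1g22370 (0.994), Mp4g03360 (0.992) and Mp1g09120 (0.992). The contrast of damaged with undamaged tissue enters all of these r, and they are given as descriptions. MpDIR65 was most like MpDIR61 (0.995), MpDIR41 like Mp2g16410 (0.995), MpDIR39 like Mp6g09000 (0.996) and MpDIR2 like MpDIR9 (0.994), a dirigent gene of chromosome 3 that rose 5.86-fold in Mpglr-9 and 6.56-fold in WT.

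Over the 12 undamaged libraries alone, MpDIR39 was again most like Mp6g09000 (r = 0.957) and MpDIR65 like MpDIR61 (0.918), while MpDIR2 was most like Mp2g18790 (0.898). Mp6g09000 averaged 472 ± 149 CPM in Mpglr-9 damaged and 543 ± 153 CPM in WT damaged lobes, and 0.219 ± 0.123 CPM in Mpglr-9 systemic and 0.276 ± 0.264 CPM in WT systemic lobes (SD, n = 3 each). In intact thallus it averaged 0.846 ± 0.883 CPM in Mpglr-9 and 4.20 ± 2.80 CPM in WT (SD, n = 3 each). As for MpDIR39, WT intact thallus had the highest mean among the undamaged groups, whereas in crushed lobes the mean was lower in Mpglr-9, unlike that of MpDIR39. The gene most like MpDIR41 in undamaged tissue, Mp6g07100 (r = 0.874), had a nearly flat level of 35.5 to 37.5 CPM in all 6 group means, and that likeness rested on the single WT intact library with 12 reads of MpDIR41.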

How the data were processed

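Messenger RNA was measured in 18 thallus libraries in 6 groups of 3. Per the labels' protocols, poly-A RNA went into NEBNext Ultra libraries that were read from both ends, 150 bases each, on a NovaSeq. HISAT2 and HTSeq are the tools named in the submitters' processing notes, and no version, option, strand setting or genome build is given in the sources used here. Values are raw read counts per gene, as the authors deposited them. Without a known strand setting, reads from a gene and an overlapping antisense gene cannot be told apart, and tandem copies may share or lose reads.

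Names came from the table of assembly MpTak2_v7.1, in which 89.8% of the identifiers have a locus tag of the same number. No coordinate was used, and locus numbers served only for neighbourhood. The 4 genes and all lists were chosen with earlier results of these data known. The peroxidase list holds MpPOD symbols only, since the meaning of MpPRX was unsure. No promoter or protein sequence was used here, so the planned motif search was not done.

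With edgeR 4.0.16 in R 4.3.3, genes were filtered by filterByExpr (13450 left), scaled by TMM and fitted with a robust quasi-likelihood model of 6 group means. P-values are two-sided and adjusted by the Benjamini-Hochberg method over all tested genes within a comparison, with a threshold of 0.05. SE is the log2 fold change divided by the square root of F, and 95% intervals are 1.96 SE wide on each side. With few libraries these intervals are approximate and narrower than the F test implies. For the MpDIR65 interaction of damaged minus intact the interval was 0.0914 to 5.28, while the unadjusted p of the F test was 0.0705. For likeness, log2 CPM had a prior count of 2. The fit was tested on simulated data. Alternatives were DESeq2 1.42.0, limma-voom (limma 3.58.1), upper-quartile scaling, no filter, only the groups compared, each library left out, and replicate blocks. The shared replicate numbers come from the labels, which do not say what they mark. Deviations from the group mean correlated within same-numbered Mpglr-9 and WT libraries at r = 0.314 to 0.680 in intact and 0.117 to 0.391 in damaged tissue. In systemic tissue r went down to 0.037. The block within each tissue nevertheless paired equal numbers in every tissue, systemic lobes included. Its results for systemic lobes and for the mean of the tissues thus rest in part on that weaker pairing. Between damaged and systemic libraries of equal number r was 0.113 to 0.313 in Mpglr-9 and 0.0718 to 0.232 in WT, and that contrast is only described.

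The genes named are the 4 genes, dirigent genes near them by locus number (within 100), the other dirigent genes at the ends of the order, up to 2 called genes per list with the largest WT change and a mean of at least 5 CPM, and the genes most like the 4. MpDIR57, MpDIR51, MpDIR24, MpDIR17, MpDIR5, MpDIR31, MpDIR34 and the neighbours without a dirigent name were picked after their values were seen. Any p-values given for them are therefore descriptions.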

Additional observations from a re-analysis of the deposited data

How the results depend on the processing

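The number of the 4 genes called was 0 in every comparison away from crushed against undamaged tissue, with 3 exceptions. DESeq2 called MpDIR39 in systemic against intact tissue, in WT (with 0.0595% of all tested genes) and pooled (0.171%). The replicate block within each tissue called MpDIR2 in Mpglr-9 against WT damaged lobes (0.364% of all tested genes). MpDIR65 and MpDIR41 had few or no reads in undamaged tissue, so comparisons of undamaged groups could not decide on them. The replicate block changed no other call of the 4 genes. Signs that changed were all of uncalled differences with a library left out. With each library left out in turn, the log2 difference of Mpglr-9 from WT in damaged lobes ran from -0.24 to 0.34 for MpDIR65, -0.48 to 0.37 for MpDIR41 and -0.12 to 0.29 for MpDIR39, and in systemic lobes from -1.11 to 0.24 for MpDIR39 and -0.19 to 0.41 for MpDIR2. For MpDIR2 the systemic change in Mpglr-9 ran from -0.54 to 0.069 and the genotype difference of the local change from -0.23 to 0.33. The cause was not tested. Leaving out Mpglr-9 intact library 1 gave 8.64 for MpDIR65 in damaged against intact Mpglr-9 tissue.

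Counts over all genes depended more on the setting. For Mpglr-9 against WT, in damaged lobes 4 genes were called, but 29 by DESeq2, 2 with only the groups compared, 9 with the block over all tissues and 11 without WT damaged library 3. In intact thallus 3 were called, but 7 by DESeq2 and 17 with the block within each tissue. In systemic lobes 7 were called, but 33 by DESeq2, 28 with only the groups compared, 16 and 44 with the replicate blocks and 3 or 4 without single systemic libraries. For the mean of tissues 42 were called, but 112 by DESeq2, 84 and 259 with the replicate blocks and as few as 21 without a library. In systemic against intact tissue the replicate block called 11 genes pooled and 1 in WT, and 3 were called in WT without WT intact library 1. The interaction had 1 call with the block within each tissue and 1 without WT intact library 1. By Spearman in place of Pearson correlation, 2 of the 5 genes most like the profile were shared. Shares per kilobase were not run, because no transcript lengths were used here, and they would be needed to compare levels between genes. Depth limits MpDIR65 and MpDIR41, which had at most 26 reads in all undamaged libraries of a genotype.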
